A study of Mus musculus with 19 samples.

Results

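Chemokine and chemoattractant receptors let microglia sense where injury or other immune cells are. The 9 receptor genes described here, *Ccr1*, *Ccr6*, *Ccrl2*, *Cxcr4*, *Cmklr1*, *Fpr1*, *Fpr2*, *Cxcr3* and *Ccr9*, were taken by their symbols from the 27299 genes measured in retinal microglia, and all 9 were found. The cells came from 6 samples taken on the third day after a laser had broken the barrier under the retina, a model of choroidal neovascularization (CNV d3), and from 6 unlasered control samples. The mice of both groups were 8 weeks old, and the labels give the strain as C57BL/6J. The methods of the study name *Cx3cr1* GFP/+ mice on that background, in which GFP replaces 1 of the alleles of the fractalkine receptor gene. The labels describe a sort of cells positive for CD45, CD11b and CX3CR1 and negative for Ly6C and Ly6G, and the methods a gate for low CD45. Neither source says whether a sample is a single animal, so p-values measure the spread between these samples only.

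Most of these receptors couple to inhibitory G proteins. A bound ligand releases the G protein subunits, which steer the actin skeleton through phosphoinositide kinases and Rac, until receptor kinases and arrestins silence the receptor. CCR1, CCR6, CCR9, CXCR3 and CXCR4 bind chemokines, CMKLR1 binds chemerin, and the formyl peptide receptors FPR1 and FPR2 bind bacterial and mitochondrial peptides and, for FPR2, several host ligands. CCRL2 is atypical, since it binds chemerin without signalling and presents it to other cells.

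The depth of the samples ran from 10963178 to 22335233 reads on genes in control and from 23532260 to 29523018 in CNV d3, so every control sample was shallower than every CNV d3 sample. Values are normalized counts, that is reads divided by a size factor that corrects for depth. Of 12 microglia markers, 7 were lower in CNV d3, and their summed level was 842807 to 1243230 normalized counts against 1457520 to 1624080 in control. Of 10 monocyte markers, 5 were higher, with sums of 1206 to 4407 against 224 to 704, and *Ly6c2* and *Chil3* were at 0 in all control samples. Of 6 dendritic cell markers, 3 were higher, with sums of 511 to 1286 against 307 to 849. By the same test, described below, 8.29% of all genes were called higher and 4.57% lower. The neutrophil markers *Ly6g* and *Retnlg*, the T cell marker *Cd3e*, the NK cell markers *Ncr1* and *Klrb1c* and the B cell markers *Ms4a1* and *Pax5* were not among the 27299 genes, from which the authors had removed genes without reads. Some other genes of these lists were read in both groups, but not all. The neutrophil genes *S100a9*, *Cxcr2*, *Ngp*, *Camp* and *Ltf* were at 0 in all control samples and reached at most 9.84 normalized counts in CNV d3. The T cell genes *Cd3d*, *Cd3g*, *Cd8a* and *Bcl11b* and the NK cell genes *Gzma* and *Klre1* were also at 0 in all control samples. Conversely, *Cd28* and *Prf1* were at 0 in all CNV d3 samples. The neutrophil list summed to 9051 to 11561 normalized counts in control and 4949 to 10769 in CNV d3, nearly all from *Csf3r*, and the B cell list to 12471 to 14925 and 10145 to 14882, mainly from *Ighm* and *Cd79b*, and 0 genes of either list were called. In bulk samples, fewer cells of a type and less RNA per cell cannot be told apart.

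Of the 9 receptors, 1 was called higher in CNV d3 (*Fpr1*) and 0 were called lower, with limma on log2(normalized counts + 1) and a Benjamini-Hochberg adjusted p under 0.05 over all 27299 genes. Over all genes, 8.29% were called higher and 4.57% lower, so the share of receptors called was near the background. *Fpr1* was also past the threshold for a differentially expressed gene (DEG), a log2 fold change above 1.5, which 3.91% of all genes passed. At an unadjusted p under 0.05, 3 receptors were higher and 1 was lower, where 16.3% of all genes were higher and 8.9% lower. On the recovered reads, edgeR called 1 higher and 0 lower (7.15% and 4.33% of all genes), and DESeq2 called 1 higher and 1 lower (14.5% and 12.6% of the 17186 genes to which it gave an adjusted p). The median log2 fold change of the 9 receptors was 0.37, and that of all genes was 0.15. In none of the 9 did all CNV d3 values lie on one side of all control values (0 of 9), a separation that 7.47% of all genes showed.

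**Figure D1:**
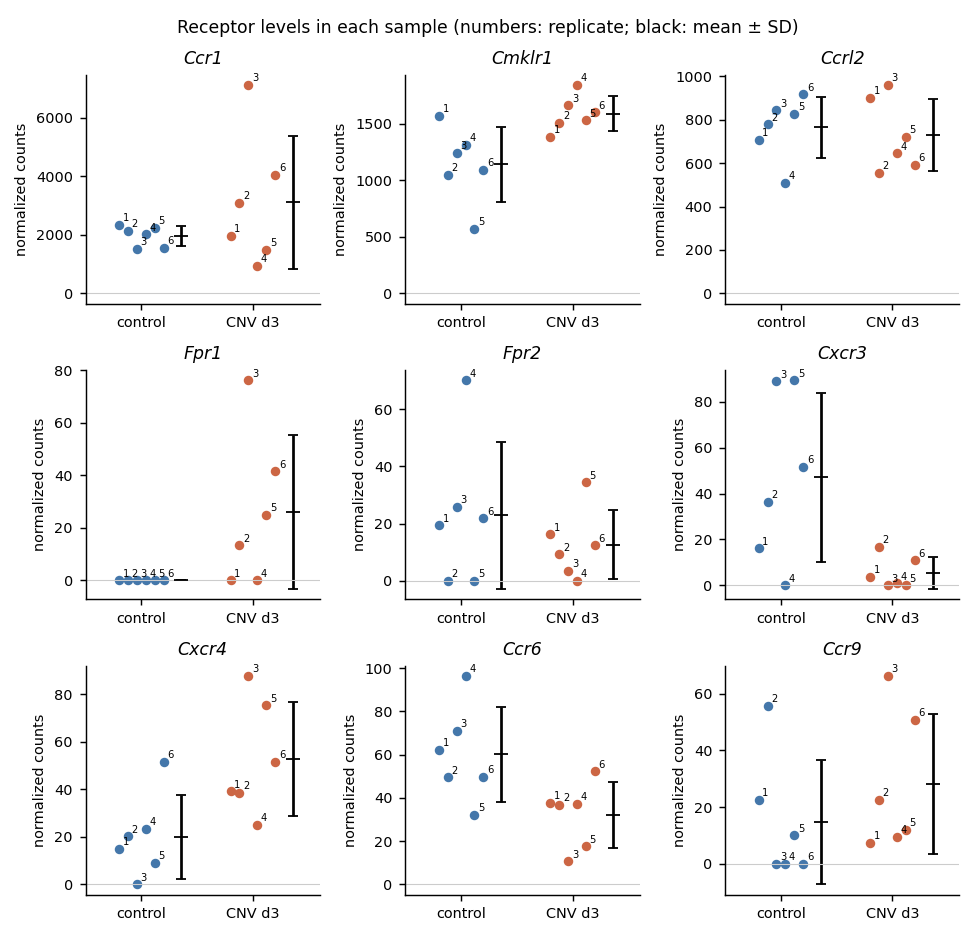
Normalized counts of the 9 receptors (y axes, linear and scaled to each gene) in the 6 control and 6 CNV d3 samples, with the replicate number beside each point and the mean ± SD in black. *Ccr1*, *Cmklr1* and *Ccrl2* had means above 500 in both groups and the other 6 receptors had means below 100, and in every panel the groups overlap or share values at 0.

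*Fpr1* encodes the high-affinity receptor for formylated peptides, and *Fpr2* is its relative and neighbour. Both are on chromosome 17 (GRCm38, with all gene coordinates from Gencode release M21), *Fpr1* at 17876471 to 17883940 on the minus strand and *Fpr2* at 17887824 to 17893952 on the plus strand. The genes point away from each other, with 3883 bases between their starts. The bases before these starts are shown because *Fpr1* was at 0 in control beside a neighbour that was not, and those of *Ccr1* because it had the highest level. They are given 5′ to 3′ from RefSeq (GRCm38.p6).
Fpr1, chr17:17883941-17884189, minus strand: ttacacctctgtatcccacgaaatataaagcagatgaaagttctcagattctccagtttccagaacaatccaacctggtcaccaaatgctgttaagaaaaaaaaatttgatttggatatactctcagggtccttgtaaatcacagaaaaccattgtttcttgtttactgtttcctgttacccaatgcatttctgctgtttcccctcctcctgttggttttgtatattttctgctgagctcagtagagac
Fpr2, chr17:17887574-17887823, plus strand: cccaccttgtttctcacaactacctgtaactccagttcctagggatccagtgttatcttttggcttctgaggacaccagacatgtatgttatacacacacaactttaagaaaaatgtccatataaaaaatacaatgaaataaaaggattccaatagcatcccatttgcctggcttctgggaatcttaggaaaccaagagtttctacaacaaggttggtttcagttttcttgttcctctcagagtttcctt
Ccr1, chr9:123968693-123968942, minus strand: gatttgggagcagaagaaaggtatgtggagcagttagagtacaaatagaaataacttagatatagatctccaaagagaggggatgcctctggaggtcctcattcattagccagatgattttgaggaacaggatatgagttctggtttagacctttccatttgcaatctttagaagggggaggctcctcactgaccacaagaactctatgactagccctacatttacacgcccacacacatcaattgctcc
No letters are in capitals, because none of 6 motifs searched on both strands was found in these 3 windows. The motifs were AP-1 (TGANTCA), PU.1 (GAGGAAGT), NF-kappaB (GGGANNTCC), C/EBP (TTGCNNAA), ISRE (GAAANNGAA) and the hypoxia response element (ACGTG). Among 32851 RefSeq promoters, the 250 bases before the start held them in 6.75%, 2.44%, 3.59%, 9.56%, 7.13% and 16.6% of cases, in that order.

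*Fpr1* had 0 reads in all 6 control samples. In CNV d3, replicates 1 and 4 were also at 0, and replicates 2, 3, 5 and 6 had 13.4, 76.1, 24.8 and 41.5 normalized counts, or 182 reads in all. *Fpr1* was therefore found in 4 of 6 CNV d3 samples and in none of the 6 control samples. The mean of 26.0 ± 29.2 (SD, n = 6) was at least 4.36-fold higher than control, taking 3 reads in the control sample of least depth as the floor. By limma the difference was 3.37 log2 units with a standard error of 1.02 (adjusted p = 0.0415). A two-sided exact permutation test over all ways to label the samples gave p = 0.0606, and the smallest p it allows is 0.00216. The call was lost with the samples thinned to the depth of the shallowest (adjusted p = 0.0709 from limma) and in all leave-one-out fits but 2 of 12, where adjusted p ran from 0.0178 to 0.122. The 2 CNV d3 samples without *Fpr1* reads had the lowest monocyte and dendritic cell sums of the group, 1206 and 1279 for monocytes and 511 and 522 for dendritic cells, and the part of these cells in the *Fpr1* reads was not tested.

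*Fpr2*, the receptor for annexin A1, serum amyloid A and many peptides, was low in both groups. It ran from 0 to 70.0 with a median of 20.6 normalized counts in control, and from 0 to 34.4 with a median of 10.8 in CNV d3. By limma it differed by -0.20 log2 units (95% interval -2.81 to 2.41, adjusted p = 0.925 from limma), an interval too wide to give a direction. Exons of *Fpr2* overlap those of *Fpr3*, and 31.5% of its 50-base stretches also occur in transcripts of another gene, while of *Fpr1* only 1 of 1275 does. Reads that fit more than 1 place were not counted, so the level of *Fpr2* is uncertain.

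*Ccr1*, the receptor for CCL3, CCL5 and related inflammatory chemokines, had the highest level of the 9. It lies on chromosome 9 from 123962124 to 123968692 on the minus strand. The control samples had 2336, 2128, 1526, 2015, 2240 and 1555 normalized counts in replicates 1 to 6. The CNV d3 samples had 1962, 3083, 7122, 937, 1488 and 4058. The CNV d3 values of replicates 2, 3 and 6 lay above the highest control sample and those of replicates 4 and 5 lay below the lowest. The highest CNV d3 sample had 7.60 times the lowest, against 1.53 times in control, and the SD of the log2 values was 1.05 against 0.27. Control averaged 1966 ± 347 and CNV d3 3109 ± 2266 (SD, n = 6 each). The log2 fold change was 0.37 (95% interval -0.43 to 1.16, adjusted p = 0.571 from limma), and the exact permutation test gave p = 0.439. Without CNV d3 replicate 3 the log2 fold change was 0.06.

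The CNV d3 samples with the most *Ccr1*, replicates 3 and 6, also had the highest monocyte sums (4407 and 3812) and dendritic cell sums (1263 and 1286) and the lowest microglia sums (842807 and 957743). Their sums over 5 perivascular macrophage markers were the highest too (404 and 380, against 104 to 202 in the rest of CNV d3). Control samples had 35.7 to 1401 for these markers. The neutrophil, T cell, NK cell, B cell, plasmacytoid dendritic cell, photoreceptor and endothelium lists did not rank both replicates highest. The plasmacytoid dendritic cell sum came mostly from *Tcf4*, with means of 4136 in control and 2390 in CNV d3. The neutrophil sum came from *Csf3r* and the B cell sum from *Ighm* and *Cd79b*, so these sums follow those genes rather than their whole lists. Replicate 3 had the highest CNV d3 value for 5 of the 9 receptors, *Ccr1*, *Ccrl2*, *Cxcr4*, *Fpr1* and *Ccr9*. The order was not the same throughout, since replicate 5 had the third highest monocyte sum (2645) with *Ccr1* below the control range. Whether the other cells contributed to *Ccr1* was not tested.

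**Figure D2:**
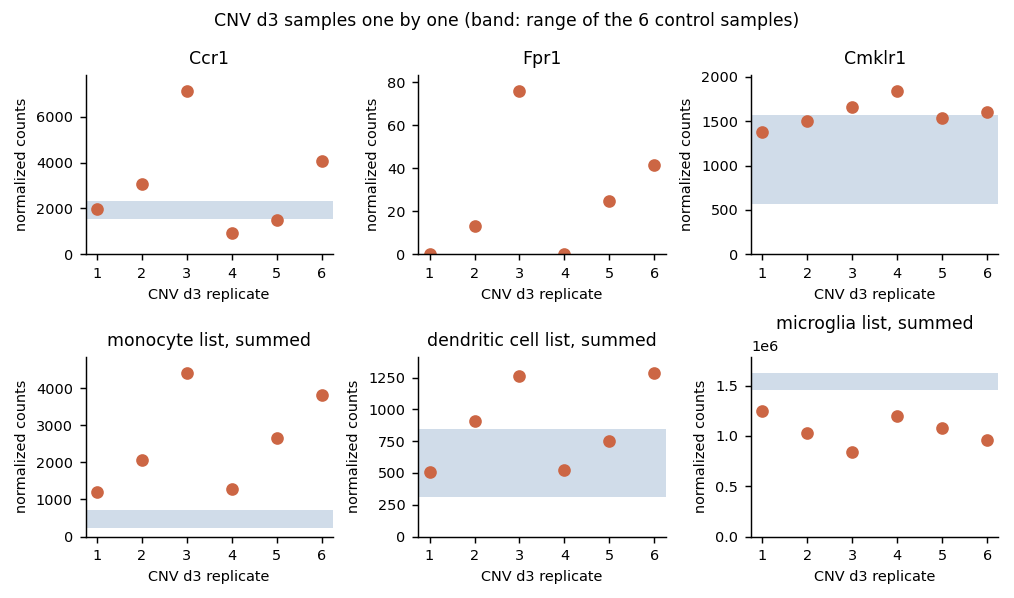
The 6 CNV d3 samples by replicate (x axes) with normalized counts of *Ccr1*, *Fpr1* and *Cmklr1* in the upper row and the summed normalized counts of the monocyte, dendritic cell and microglia lists in the lower row. The band is the range of the 6 control samples, which is at 0 for *Fpr1*. Replicates 3 and 6 are highest for *Ccr1*, *Fpr1* and the monocyte list, while *Cmklr1* lies between 1384 and 1842 in all 6.

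*Cmklr1* and *Ccrl2* share the ligand chemerin. *Cmklr1*, the signalling receptor, lies on chromosome 5 from 113612354 to 113650426. It had 572 to 1572 normalized counts with a median of 1167 in control, and 1384 to 1842 with a median of 1566 in CNV d3. Here the CNV d3 samples were the more uniform group, and 3 of them lay above the highest control sample. Control averaged 1139 ± 335 and CNV d3 1588 ± 156 (SD, n = 6 each), a log2 fold change of 0.54 (95% interval 0.12 to 0.95). It had p = 0.00866 in the exact permutation test for this gene alone and an adjusted p of 0.0876 from limma over all genes, so *Cmklr1* was not called. The control sample with the lowest value, replicate 5, was followed by replicate 2 with 1045. Only the fit over genes with at least 10 normalized counts in at least 6 samples called it (adjusted p = 0.0499 from limma, log2 fold change 0.54). *Ccrl2*, on chromosome 9 from 111054486 to 111057519, had 510 to 917 normalized counts with a median of 804 in control and 554 to 961 with a median of 684 in CNV d3. The difference was -0.07 log2 units, with a 95% interval of -0.46 to 0.31, the narrowest of the 9.

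*Cxcr4*, the CXCL12 receptor that holds leukocytes in bone marrow, lies on chromosome 1 from 128588199 to 128592293. It had 0 to 51.6 normalized counts with a median of 17.6 in control and 25.1 to 87.7 with a median of 45.3 in CNV d3. The groups overlapped, and control replicate 3 had no read. CNV d3 differed by a log2 fold change of 1.95 (95% interval 0.16 to 3.75, adjusted p = 0.156 from limma), with p = 0.0195 in the exact permutation test for this gene alone. Without control replicate 3 it was 1.22, and edgeR and DESeq2 gave 1.43 and 1.44 over all samples. *Ccr6*, the receptor for CCL20, lies on chromosome 17 from 8236043 to 8257141. It had 32.1 to 96.4 normalized counts with a median of 56.0 in control and 10.7 to 52.3 with a median of 37.0 in CNV d3, where replicates 3 and 5 lay below every control sample. The log2 fold change was -0.98 (95% interval -2.04 to 0.09, adjusted p = 0.245 from limma), with p = 0.0281 in the exact permutation test. These exact tests were made for all 9 receptors and are not adjusted, and 3 of them, for *Cmklr1*, *Cxcr4* and *Ccr6*, gave a p under 0.05, as did 22.5% of all genes.

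*Cxcr3*, which is typical of activated T cells and binds CXCL9 and CXCL10, lies on chromosome X from 101731535 to 101734269. The control samples had 16.1, 36.4, 89.0, 0, 89.3 and 51.6 normalized counts in replicates 1 to 6, or 245 reads in all. The CNV d3 samples had 3.69, 16.7, 0, 0.866, 0 and 10.8, or 39 reads. All control samples except replicates 1 and 4 were above every CNV d3 sample. By limma the difference was -2.87 log2 units (95% interval -5.39 to -0.34, adjusted p = 0.138 from limma; exact permutation p = 0.0541), so *Cxcr3* was not called. DESeq2 called it (adjusted p = 0.0339) and edgeR did not (adjusted p = 0.116). In simulated data DESeq2 made 93 false calls beside 174 correct ones, against 4 beside 146 for limma. Without control replicate 4, the control sample at 0, the adjusted p from limma was 0.0202. This was the only 1 of 12 leave-one-out fits that called *Cxcr3*. The T cell list, for which *Cd3e* was not among the genes measured, had summed levels of 0 to 115 normalized counts in control and 14.0 to 73.6 in CNV d3. Most of this sum came from *Cd5*, with means of 47.35 in control and 30.8 in CNV d3. Of the 9 genes measured on this list, 0 were called.

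*Ccr9*, the CCL25 receptor of thymocytes and gut-homing cells, lies on chromosome 9 from 123678439 to 123784330. It had 0 to 55.7 normalized counts with a median of 5.02 in control, where 3 of 6 samples had reads, and 7.39 to 66.2 with a median of 17.3 in CNV d3. This is a log2 fold change of 2.11 (95% interval -0.33 to 4.55, adjusted p = 0.281 from limma). The size depended on the handling of low values, with 0.91 from edgeR, 0.92 from DESeq2 and 1.12 with a pseudocount of 5, and the group means were 14.7 ± 22.0 and 28.1 ± 24.6 normalized counts (SD, n = 6 each). Its exons overlap those of 3 other genes and 20.1% of its 50-base stretches occur in transcripts of another gene, so this count is uncertain too.

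**Figure D3:**
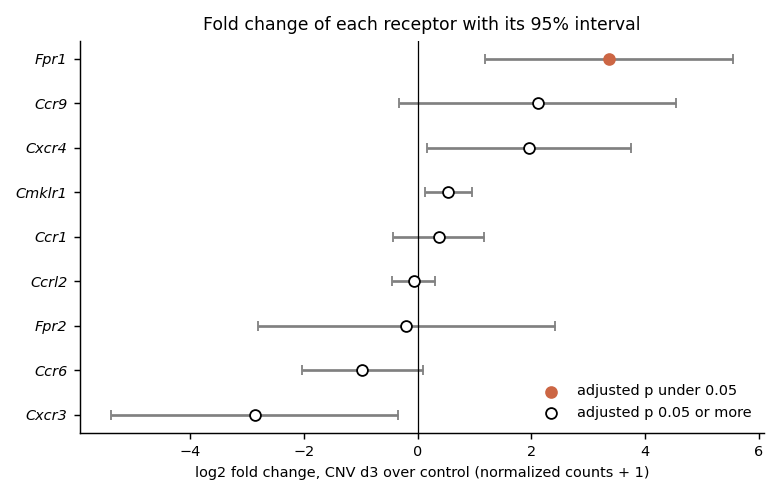
Log2 fold change of each receptor, CNV d3 over control, on the log2(normalized counts + 1) scale (x axis), with its 95% interval from limma. *Fpr1* (filled) was the only receptor with an adjusted p under 0.05. The intervals of *Cmklr1*, *Cxcr4* and *Cxcr3* exclude 0 before adjustment, and those of the low receptors are several log2 units wide.

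Per kilobase of exon, which allows levels of different genes to be compared, *Ccr1* led both groups with 694 normalized counts per kb in control and 1097 in CNV d3. *Cmklr1* followed with 334 and 466, and *Ccrl2* with 294 and 281. The other 6 receptors had at most 27.2 per kb in control and 29.2 in CNV d3. The counts of *Ccr9* were divided by 10.26 kb of exon, which overlaps exons of 3 other genes, so its level per kb is uncertain. In control, *Ccr1* was above *Cmklr1* in 6 of 6 samples with no overlap of their ranges, whereas *Cmklr1* and *Ccrl2* overlapped, with *Cmklr1* higher in 4 of 6. In CNV d3, the ranges of *Ccr1* and *Cmklr1* overlapped and those of *Cmklr1* and *Ccrl2* did not. Below *Ccrl2*, all neighbours in the order had overlapping ranges in both groups, so the order of neighbours among the low receptors is not set by these data. Some low receptors further apart in the order did separate. In control, *Ccr6* had at least 13.8 per kb and *Fpr1* had 0. In CNV d3, *Cxcr4* had at least 13.9 per kb and *Cxcr3* at most 9.66. For scale, *Cx3cr1* had 22626 normalized counts per kb in control.

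**Figure D4:**
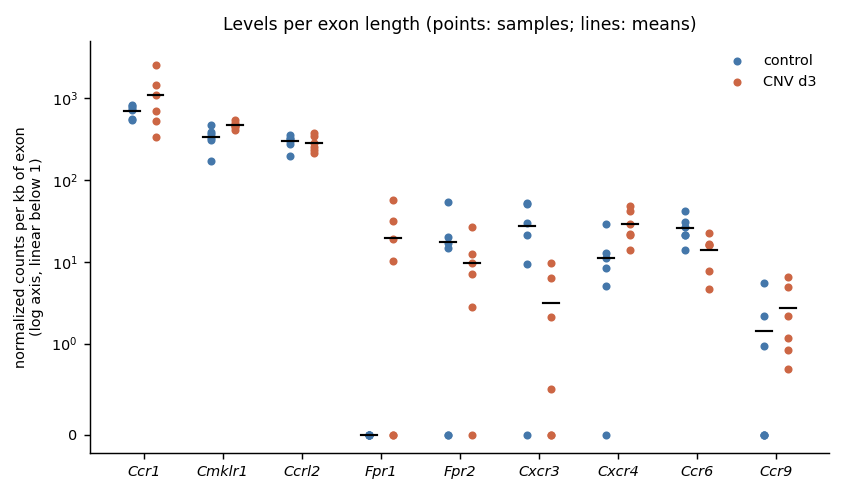
Normalized counts per kb of exon (y axis, logarithmic above 1 and linear below) for each receptor in control (blue) and CNV d3 (orange), with points for samples and lines for means. *Ccr1*, *Cmklr1* and *Ccrl2* stand above the other 6 receptors in both groups.

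*Ccr1* and *Ccr9* belong to a cluster of chemokine receptor genes on chromosome 9, of which 7 genes between 123678439 and 124113557 were compared. *Ccr2*, the monocyte receptor for CCL2, had a log2 fold change of 5.60 and *Xcr1*, a receptor of cross-presenting dendritic cells, one of 3.90, both called by limma (adjusted p = 0.00455 and 0.0139). *Ccr1*, *Ccr9*, *Cxcr6*, *Ccr1l1* and *Ccr3* were not called, with log2 fold changes from -0.83 to 2.11.

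Of 17 other chemokine receptors, 15 were in the table, 4 were called higher, 1 lower and 10 were not called, with a median log2 fold change of 1.35. Those higher were *Ccr2*, *Xcr1*, *Ccr7*, the receptor that guides dendritic cells to lymph nodes (log2 fold change 6.89), and *Ccr10*, with at most 12.1 normalized counts in any sample (1.85). *Ccr2* and *Xcr1* also stand in the monocyte and dendritic cell lists. The one lower was *Cx3cr1*, the fractalkine receptor of microglia, which fell from 101929 ± 2529 to 57441 ± 9571 normalized counts (SD, n = 6 each). Over all genes, 8.29% were called higher and 4.57% lower, with a median log2 fold change of 0.15. The median of the list was that of *Cxcr2*, with means of 0 normalized counts in control and 2.72 in CNV d3. Low values limit it, as *Cxcr5* had a log2 fold change of 1.73 with means of 28.4 in control and 23.7 in CNV d3. Of 19 other chemoattractant receptors, 15 were in the table, 1 was higher (*Gpr35*, log2 fold change 0.53) and 2 were lower (*Gpr84*, a receptor for medium-chain fatty acids, -1.28, and the sphingosine phosphate receptor *S1pr2*, -0.64). The median of this list was -0.18.

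Of 17 ligands of the 9 receptors, 16 were in the table, 3 were higher, 2 lower and 11 not called, with a median log2 fold change of 0.71. The shares over all genes were 8.29% higher and 4.57% lower, and the median was 0.15. *Saa3*, a serum amyloid A and ligand of FPR2, reached at most 1.99 normalized counts in a control sample and averaged 67.6 ± 58.1 (SD, n = 6) in CNV d3 (log2 fold change 5.32). *Anxa1*, which encodes annexin A1, rose by 4.10 on the log2 scale from 25.6 ± 35.5 to 156 ± 103 normalized counts (SD, n = 6 each). *Mif*, a cytokine that also binds CXCR4, rose by 0.80. The CCR1 ligand gene *Ccl6* had a log2 fold change of -0.57, and that of *Ccl25*, the ligand of CCR9, was -1.08. Of the receptors of these 5 ligands, *Fpr1*, on which annexin A1 and its peptides also act, was called higher, and *Fpr2*, *Cxcr4*, *Ccr1* and *Ccr9* were not called.

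Of 34 genes of G protein signalling and desensitization, 7 were called higher, 6 lower and 21 were not called, with a median log2 fold change of 0.30. Those higher with the highest levels were the inhibitory G protein subunit *Gnai2* (0.62), the small GTPases *Rac1* (0.24) and *Rac2* (0.94) and the subunit *Gnb1* (0.99). Those lower with the highest levels included *Rgs2* (-0.66) and *Rgs10* (-0.46), which switch G proteins off. Also among them were *Elmo1* (-0.93) and *Dock8* (-0.57), which take part in activating small GTPases of the actin skeleton. For *Gnai2*, the CNV d3 samples began at 27525 normalized counts and the control samples ended at 20886. For *Elmo1*, the CNV d3 samples ended at 9676 and the control samples began at 13709. Such a separation was seen in 7.47% of all genes, of which 8.29% were called higher and 4.57% lower.

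**Figure D5:**
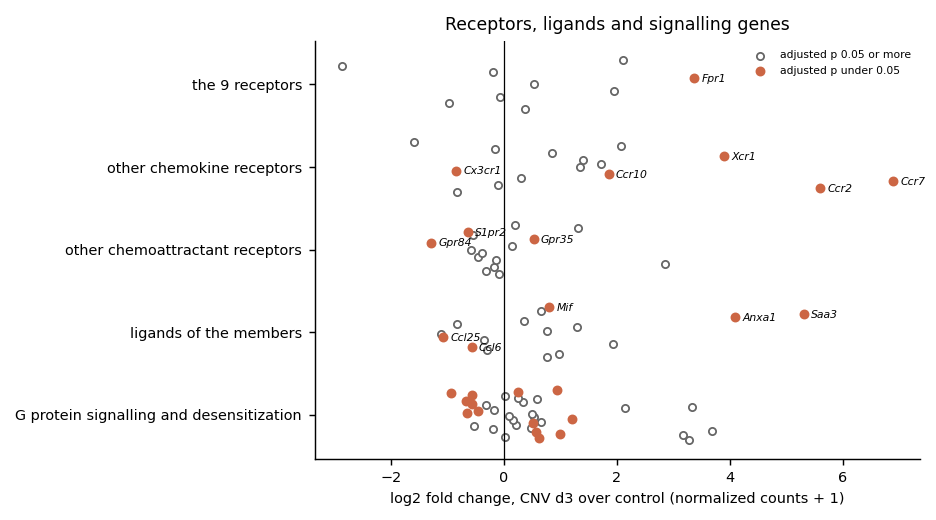
Log2 fold changes, CNV d3 over control, on the log2(normalized counts + 1) scale (x axis) for the 9 receptors and 4 lists of related genes, 1 point per gene, filled where the adjusted p from limma was under 0.05. Names are given for filled points except in the G protein list. The filled points of the chemokine receptor list reach from -0.84 for *Cx3cr1* to 6.89 for *Ccr7*.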

How the data were processed

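Single reads of retinal microglia were processed by the authors with FastQC 0.72, STAR 2.7.2b on GRCm38.p6 with Gencode M25, and featureCounts 1.6.4 at default settings, which ignore strand and leave out reads that fit several places or genes. The deposited values are signal, that is the read counts divided by a DESeq2 1.22.2 size factor. Every value was a whole multiple of 1 read (tolerance 0.01 reads), so reads were recovered. The deposited means, fold changes and adjusted p-values of the authors were not used, and 0 sample columns were left out. Of the 12 samples, 7 were listed in 2 parts (19 listed samples), which the authors had merged. These were all 6 control samples and CNV d3 replicate 4, so this layout nearly follows the groups and cannot be told apart from them. Replicates differed by more than counting noise (chi-square per degree of freedom at least 29.6). PCR copies were not marked, so floors cover counting error only.

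The main test was limma 3.58.1 in R 4.3.3 (moderated variance with trend, pseudocount 1, all 27299 genes). Alternatives were edgeR 4.0.16 and DESeq2 1.42.0 on recovered reads, pseudocounts 0.5 and 5, a filter, TMM, no trend, thinning, a replicate block and leaving out each sample. On simulated counts (25758 genes, 200 changed by 3 log2 units), limma recovered 146 with 4 false calls, edgeR 157 with 11 and DESeq2 174 with 93. A limit on false calls was first set for all 3 tools; DESeq2 exceeded it, and it was then kept for limma alone. Exact permutation tests were two-sided. Members and lists were chosen with earlier results of these data known. All 9 receptors are named, and from each list up to 4 genes called higher and 4 called lower with the highest mean. Same-numbered samples of the groups did not deviate together (correlations -0.01 to 0.05), so these values gave no sign that the numbers pair them. A pairing by design need not show in such correlations. A few genes of these lists are not reported here, and 1 of them was left out of the counts and the median of the other chemokine receptors after its values were seen.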

Additional observations from a re-analysis of the deposited data

Results flagged for a closer look

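*Fpr2* stood out in control, where replicate 4 had 70.0 normalized counts and the gap to the next sample was 0.63 of the whole range of the group, above Dixon's 95% critical value. For normally distributed values, chance alone gives such a gap in about 1 of 20 groups, and 9 receptors were looked at in 2 groups each. The control values of *Fpr2* were low, with replicates 2 and 5 at 0, so this rate may not hold for them. Without control replicate 4 the log2 fold change of *Fpr2* was 0.37.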

How the results depend on the processing

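The number of receptors called higher was 1 under the main settings and 0 with a pseudocount of 5, without the trend, after thinning and with the replicate block, and ran from 0 to 1 with each sample left out. The number past the DEG threshold, higher, was 0 under these settings and also with the filter (at least 10 in 6 samples), which leaves *Fpr1* out and calls *Cmklr1* instead, and ran from 0 to 1 with each sample left out. For *Fpr1* the log2 fold change and adjusted p were 1.95 and 0.0584 with a pseudocount of 5, 3.37 and 0.0594 without the trend, 2.75 and 0.0709 after thinning, and 3.37 and 0.0534 with the replicate block, while edgeR (0.0185) and DESeq2 (0.00248) called it. The call was lost in 14 of 20 alternatives. The numbers called lower and past the DEG threshold, lower, were 0 and became 1 with DESeq2 and ran from 0 to 1 with each sample left out, in each case through *Cxcr3* (-3.14 with DESeq2, -3.80 without control replicate 4). The log2 fold change of *Fpr2* turned positive in 5 leave-one-out fits, up to 0.42 (-0.86 to 0.42 over all 12). The other receptors kept their direction in all alternatives. The replicate block changed no other receptor call. The causes were not tested. The median log2 fold change of the 13614 genes with a mean of at least 10 was 0.10, and 0.12 with TMM. Among the receptors with means below 100, intervals several log2 units wide limit what could be seen.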
